A study of Mus musculus with 6 samples.

Results

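Transcription factors linked to the identity of the roof plate and of the choroid plexus (ChP) were compared between embryonic and adult mouse ChP. The 10 genes were Otx2, Lmx1a, Lmx1b, Msx1, Msx2, Hes1, Hes5, Meis1, Pax6 and Sox2. They were taken by gene symbol from a table of 24354 genes, in which all 10 were found. Libraries came from translating ribosome affinity purification (TRAP), which pulls down ribosomes with a tagged subunit and the mRNA that they carry. The 3 adult samples (postnatal day 60) and the 3 samples of embryonic day 16.5 (E16.5) all came from FoxJ1:cre x bacTRAP (EGFP:L10a) mice, so that the tagged ribosomal protein and the Cre recombinase were shared by both ages and no untagged control was analysed here. The Foxj1 promoter marks cells with motile cilia, which include ependyma as well as ChP epithelium. By the methods of the paper, lateral ventricle ChP of 3 mice or of 3 litters was pooled for each sample, whereas the series text speaks of 3 mice per age, so the sources differ on what a replicate is, and p-values measure the spread between these samples.

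The ChP epithelium arises from the dorsal midline of the neural tube next to the roof plate, under bone morphogenetic protein and WNT signals. LMX1A and LMX1B are LIM homeodomain proteins of the roof plate, OTX2 is a homeodomain protein that the ChP needs to form and to persist, and MSX1 and MSX2 are homeodomain repressors that respond to bone morphogenetic proteins. HES1 and HES5 are repressors switched on by Notch receptors, and in the early ChP field HES proteins hold back neurogenesis. MEIS1, PAX6 and SOX2 belong above all to neural progenitors and early neurons, and SOX2 is also found in ependymal cells.

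Values are FPKM, fragments counted for each kilobase of a transcript and scaled to the size of the library, so that levels are per transcript length. The mapped reads of a library were not given with the table. From the step that 1 read leaves among low values, 1 read in a kilobase was worth 0.113 to 0.324 FPKM in the adult libraries and 0.0638 to 0.0806 FPKM in the E16.5 libraries, which makes the E16.5 libraries 4.02 to 5.08 times as deep as adult replicate 3, the shallowest. Mir6236, annotated as a microRNA gene, took 32.7% to 51.7% of summed FPKM in adult and 13.3% to 15.0% at E16.5. E16.5 replicate 1 stood apart in neuron markers, whose summed FPKM was 135 there and 20.9 and 19.1 in E16.5 replicates 2 and 3.

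Otx2 and Lmx1a fell from E16.5 to adult, to 44.4% and 25.2% of their embryonic mean FPKM. No factor passed the threshold as higher in adult. Msx1 and Msx2, Hes1, Sox2 and Pax6 were tested and did not pass the threshold, and Lmx1b, Hes5 and Meis1 were too low to be tested. The log2 change of Hes1 was 0.80, and its 95% interval (-0.74 to 2.35) leaves room for a fall as well as a rise. Ages were compared by limma on log2(FPKM + 1) over the 11601 genes with a mean above 1 FPKM, at a Benjamini-Hochberg adjusted p of 0.05. Of the 7 factors that passed this filter 2 were lower in adult, where 8.83% of all genes tested were lower and 2.12% higher. A factor that passes through a high level at E16.5 alone is more easily found to differ, so that these counts describe the list and no more. The median log2 change was -1.16 over the 7 factors and -0.86 over all genes tested. In 4 of the 7, Otx2, Lmx1a, Sox2 and Pax6, every adult sample lay below every E16.5 sample, as in 31.0% of all genes tested, and in 0 did every adult sample lie above, as in 7.39%. These same 4 had an unadjusted limma p under 0.05, as had 31.3% of all genes tested.

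**Figure D1:**
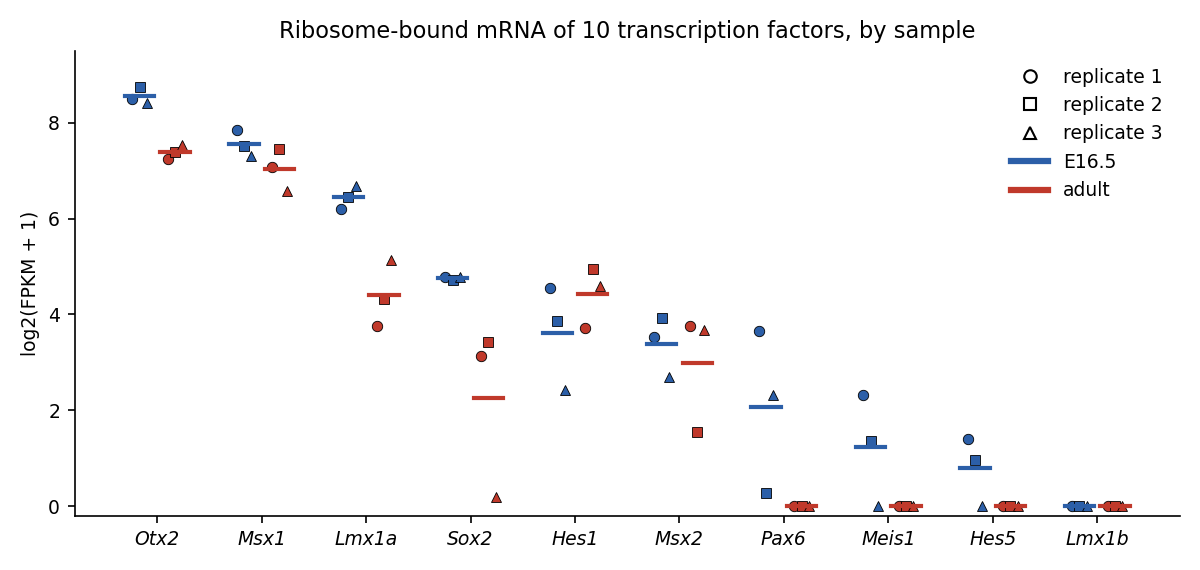
Level of each factor as log2(FPKM + 1) in 3 E16.5 samples (blue) and 3 adult samples (red), with lines at the means and a symbol for each replicate number, which is not taken to pair the ages. In Otx2, Lmx1a, Sox2 and Pax6 every adult sample lies below every E16.5 sample, and Lmx1b lies at 0 in all 6.

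Lmx1a (chr1:167689237-167848741, plus strand, mm10 as in GENCODE M21), which specifies the roof plate, was listed at 72.1, 86.8 and 101 FPKM in the E16.5 samples and at 12.5, 19.1 and 33.9 FPKM in the adult samples. The ages did not overlap, and adult replicate 3 lay highest among the adults. Means were 86.6 ± 14.4 FPKM at E16.5 and 21.9 ± 11.0 FPKM in adult (SD, n = 3 each). The log2 change was -2.04 (95% interval -3.02 to -1.05, limma adjusted p = 0.0290). Relative to the median change of all genes, it changed by -1.18. The call was lost without adult replicate 1 (limma adjusted p = 0.0520) and without E16.5 replicate 1, 2 or 3 (limma adjusted p = 0.0923, 0.103 and 0.101), with changes of -1.71 to -2.16. In bulk samples, less mRNA in each cell and fewer cells that make it cannot be told apart. Its paralog Lmx1b (chr2:33560965-33640511, minus strand), which acts beside Lmx1a in the roof plate, was listed at 0 in all 6 samples.

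Otx2 (chr14:48657677-48673819, minus strand) had the highest mean FPKM of the factors at both ages. It was listed at 361, 426 and 340 FPKM at E16.5 and at 150, 166 and 184 FPKM in adult, again with no overlap. The mean went from 376 ± 44.9 FPKM to 167 ± 16.9 FPKM (SD, n = 3 each), a log2 change of -1.16 (95% interval -1.70 to -0.63, limma adjusted p = 0.0251). Relative to the median change of all genes, this was -0.31. It did not pass the threshold after scaling by median ratios (log2 change -0.82, limma adjusted p = 0.0584), after quantile normalization (-0.64, adjusted p = 0.134 by limma), or without E16.5 replicate 1, 2 or 3 (limma adjusted p = 0.0867, 0.0920 and 0.0723). Within each library, however, Otx2 outranked nearly all genes tested, with 97.8% to 98.2% of them below it in the adult samples and 98.8% to 99.0% at E16.5. Otx2os1, a noncoding RNA gene on the other strand that overlaps the most upstream Otx2 start of GENCODE, had 14.6, 28.8 and 10.9 FPKM at E16.5 and was listed at 0 in every adult sample (limma adjusted p = 0.0128, and 0.0554 to 0.0644 without an E16.5 replicate). Whether strand was used in making the FPKM was not stated, so reads of overlapping genes may not be separated.

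The 250 bases before the RefSeq start (build GRCm38.p6) are shown for the 2 factors that fell, for Msx1 as an abundant factor that did not pass the threshold, and for Hes5 as a target of Notch. Of the 10 factors, 9 were found in the RefSeq promoter table. Capitals mark matches, on either strand, to 6-letter motifs of the families studied here, which were TAATCC for OTX, TAATTA for LIM homeodomain and MSX proteins, CAATTA for MSX, ACAATG for SOX, TGGGAA for RBPJ and TGACAG for MEIS. TAATTA and CAATTA differ in their first letter alone, and no matches overlap in these windows. Such letters occur in 6.25%, 4.84%, 7.17%, 10.7%, 21.6% and 15.9%, in that order, of 32851 windows of the same length, so a match is a description and not a site.
Otx2: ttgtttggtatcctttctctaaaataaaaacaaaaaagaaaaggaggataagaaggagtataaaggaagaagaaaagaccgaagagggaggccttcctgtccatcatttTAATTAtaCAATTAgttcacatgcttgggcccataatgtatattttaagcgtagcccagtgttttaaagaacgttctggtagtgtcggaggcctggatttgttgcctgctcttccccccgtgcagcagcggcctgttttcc
Lmx1a: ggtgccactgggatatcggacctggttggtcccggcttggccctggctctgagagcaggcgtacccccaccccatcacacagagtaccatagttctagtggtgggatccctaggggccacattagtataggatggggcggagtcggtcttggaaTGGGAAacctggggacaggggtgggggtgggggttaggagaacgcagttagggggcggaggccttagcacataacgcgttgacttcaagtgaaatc
Msx1: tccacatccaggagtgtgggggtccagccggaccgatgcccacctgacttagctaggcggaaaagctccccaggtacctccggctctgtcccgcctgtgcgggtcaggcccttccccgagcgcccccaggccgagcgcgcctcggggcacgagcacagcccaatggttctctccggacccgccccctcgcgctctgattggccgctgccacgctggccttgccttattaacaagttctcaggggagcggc
Hes5: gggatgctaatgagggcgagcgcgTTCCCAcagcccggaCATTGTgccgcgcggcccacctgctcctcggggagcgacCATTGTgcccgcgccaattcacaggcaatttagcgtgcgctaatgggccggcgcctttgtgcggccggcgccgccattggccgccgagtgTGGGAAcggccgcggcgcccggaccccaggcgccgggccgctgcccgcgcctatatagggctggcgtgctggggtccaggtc
The Otx2 window (chr14:48667645-48667894, minus strand, the most upstream of 4 RefSeq starts) has a G and C content of 42.0%. It holds TAATTA 141 bases and CAATTA 133 bases before the start. The Lmx1a window (chr1:167689308-167689557, plus strand) is 59.2% G and C, with TGGGAA 96 bases before the start. Both of these windows lie within the GENCODE M21 coordinates of their genes, whereas those of Msx1 and Hes5 lie outside. None of the motifs was found in the Msx1 window (chr5:37824586-37824835, minus strand), which is 68.0% G and C. The Hes5 window (chr4:154960673-154960922, plus strand) has 71.6% G and C, with TGGGAA or its complement 226 and 82 bases and the complement of ACAATG 211 and 172 bases before the start.

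Msx1 (chr5:37820485-37824583, minus strand) stayed among the abundant mRNAs at both ages. The E16.5 samples had 230, 181 and 157 FPKM and the adult samples 133, 174 and 94.6 FPKM, so that adult replicate 2 lay within the embryonic range. Its log2 change was -0.52 (95% interval -1.25 to 0.20, limma adjusted p = 0.286), an interval that leaves room for a fall as large as that of Otx2. Between 95.3% and 97.9% of the genes tested lay below Msx1 in each library. Msx2 (chr13:53466884-53473074, minus strand) was much lower, with 10.5, 14.2 and 5.43 FPKM at E16.5 and 12.5, 1.90 and 11.8 FPKM in adult. Adult replicate 2 stood below the other adult samples, and the log2 change of -0.39 (95% interval -2.19 to 1.42, limma adjusted p = 0.756) became 0.34 without it.

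Sox2 (chr3:34650405-34652461, plus strand), a factor of progenitors and ependyma, had nearly equal levels in the embryonic samples (26.3, 25.3 and 26.4 FPKM). In adult it was listed at 7.81, 9.81 and 0.145 FPKM. Every adult sample lay below every E16.5 sample, and adult replicate 3 far below the others. Sox2 has a single annotated transcript, on which that lowest value came to 0.83 of a read by the read step, against 56.4 and 160 reads in adult replicates 1 and 2. The log2 change was -2.50 (95% interval -4.55 to -0.45, limma adjusted p = 0.105), and without adult replicate 3 it was -1.47 and passed the threshold (limma adjusted p = 0.0416). Sox2 lies inside Sox2ot, a noncoding gene of the same strand, which had 2.50, 4.86 and 6.39 FPKM at E16.5 and 0.0922, 0 and 0.236 FPKM in adult (limma adjusted p = 0.0507).

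Pax6, Meis1 and Hes5 were scarce. Pax6 (chr2:105668900-105697364, plus strand), a paired homeodomain factor of cortical progenitors, was listed at 11.5, 0.207 and 3.98 FPKM at E16.5, at 0 in adult replicates 1 and 3 and at 1.43e-06 FPKM in adult replicate 2. It passed the filter through E16.5 alone, its difference on the log2(FPKM + 1) scale was -2.08 (95% interval -4.13 to -0.02, limma adjusted p = 0.157), and without E16.5 replicate 1 its mean fell under the filter. Pax6os1, on the other strand across the Pax6 start, was listed at 0 in all 6 samples. Meis1 (chr11:18879817-19018985, minus strand), a TALE homeodomain partner of PBX proteins, had 4.0, 1.57 and 0 FPKM at E16.5. Hes5 (chr4:154960923-154962371, plus strand) had 1.64, 0.945 and 0 FPKM there. Both were listed at 0 in every adult sample, and with no filter on low values neither passed (limma adjusted p = 0.481 and 0.454). Of the 50-base stretches of their transcripts, 17% in Meis1 and 21.8% in Hes5 also occur in transcripts of other genes, so reads there may have been split.

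All 3 were highest in E16.5 replicate 1, the library with the most neuron marker signal. There, all 11 of the neuron markers above 0 at E16.5 had their highest embryonic value, led by Map2 (39.0, 14.9 and 18.7 FPKM in E16.5 replicates 1, 2 and 3) and Tubb3 (36.2, 0.623 and 0.134 FPKM). Over all genes tested the highest embryonic value was in replicate 1 for 34.8%. Of the 9 factors above 0 at E16.5, 5 were highest in replicate 1, namely Msx1 and Hes1 beside Pax6, Meis1 and Hes5. Of 15 relatives of the factors above 0 at E16.5, 11 were highest in replicate 1, among them Lhx9 (15.8, 0 and 2.75 FPKM) and Meis2 (7.31, 4.26 and 0.429 FPKM). Other lists leaned to replicate 1 as well, with 8 of 11 ependyma and cilia markers, 6 of 8 astrocyte and oligodendrocyte markers and 6 of 11 neural progenitor markers highest there. Summed neuron markers in adult were 2.25, 8.86 and 20.9 FPKM, with Neurod2, Neurod6 and Slc17a7 at 0 in all 6 libraries. The part of neurons or progenitors in the levels of Pax6, Meis1 and Hes5 was not tested.

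**Figure D2:**
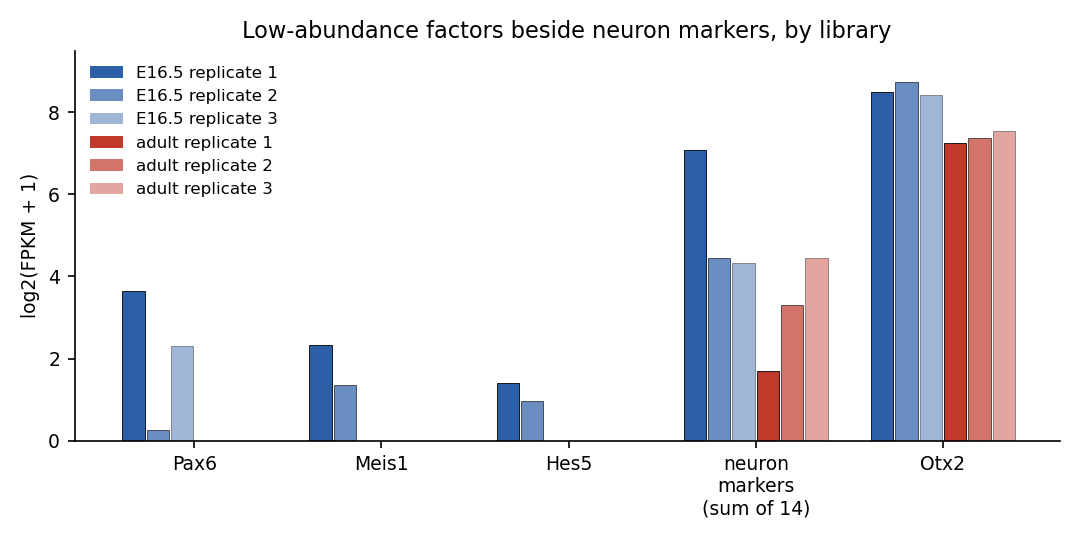
Bars give log2(FPKM + 1) of Pax6, Meis1, Hes5 and Otx2 and of the summed FPKM of 14 neuron markers in each of the 6 libraries (E16.5 blue, adult red, darker for lower replicate numbers, no bar at 0). E16.5 replicate 1 has the tallest bar for Pax6, Meis1, Hes5 and the neuron markers, while Otx2 is near equal in the E16.5 libraries.

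Hes1 (chr16:30064384-30067796, plus strand), the other Notch-responsive repressor, was the 1 tested factor with a higher adult mean. It was listed at 22.3, 13.6 and 4.35 FPKM at E16.5 and at 12.1, 29.9 and 23.0 FPKM in adult. The ages overlapped, and the spread within each age was wide. Its log2 change of 0.80 (95% interval -0.74 to 2.35, limma adjusted p = 0.429) lay 1.66 above the median of all genes and did not pass under any of the 19 alternatives tried (limma adjusted p from 0.223 to 0.959). The change was 0.21 without E16.5 replicate 3 and 1.27 without E16.5 replicate 1.

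At E16.5 the order of mean levels was Otx2, Msx1, Lmx1a, Sox2, Hes1, Msx2, Pax6, Meis1, Hes5 and Lmx1b. The first 4 were separated from each other and from Hes1 without overlap between samples, and from Hes1 downward neighbours overlapped. In adult the order was Otx2, Msx1, Lmx1a, Hes1, Msx2, Sox2 and then the 4 factors at or near 0. Otx2 and Msx1 overlapped in adult, both lay above every value of Lmx1a, and Lmx1a, Hes1, Msx2 and Sox2 overlapped in turn.

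How far each factor moved depended on the scaling between libraries, and the median change of all genes moved with it. That median was -0.56 under median-ratio scaling, -1.46 when every library was scaled to the same sum of FPKM, -0.99 when that sum left out Mir6236, and -0.09 after quantile normalization. Lmx1a stayed past the threshold in all 4, with log2 changes of -1.70, -2.84, -2.19 and -1.65 (limma adjusted p = 0.0449, 0.00867, 0.0262 and 0.0399). Otx2 passed under both sums (limma adjusted p = 0.00621 and 0.0198). Msx1 and Sox2 passed under the same sum of FPKM (limma adjusted p = 0.0364 and 0.0287) and under no other scaling. Msx2 turned from -0.39 to 0.30 after quantile normalization, and Hes1 kept a positive change that was as low as 0.05 under the same sum.

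**Figure D3:**
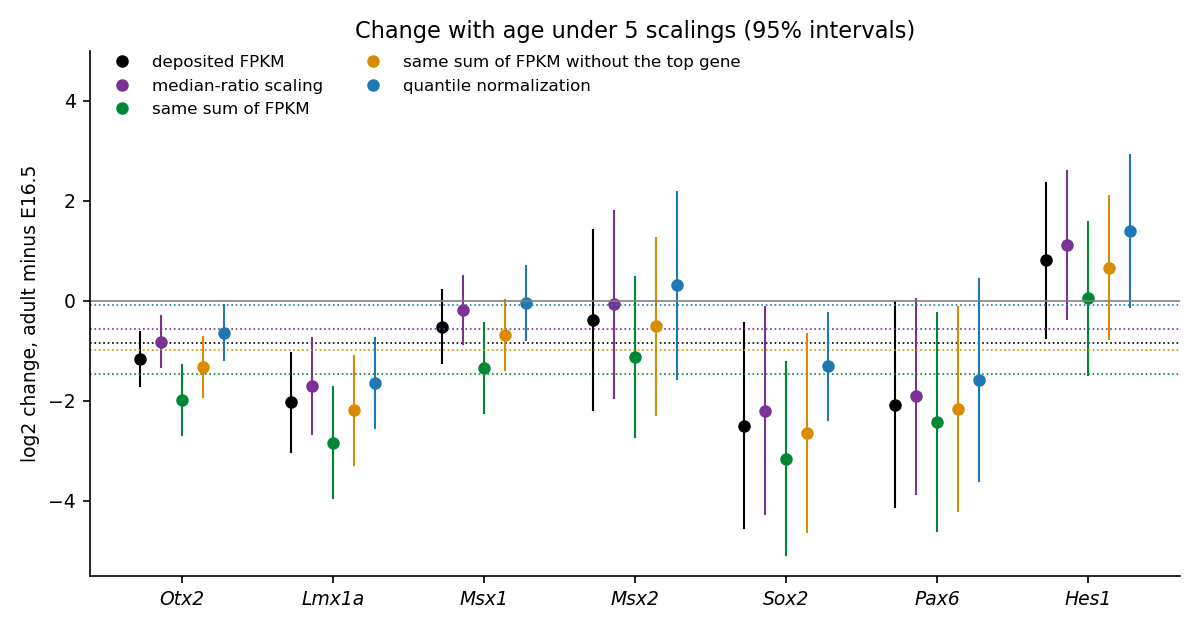
Log2 change from E16.5 to adult for the 7 factors tested, with 95% intervals from limma, for the deposited FPKM (black) and 4 other scalings (colours), and dotted lines at the median change of all genes under each. Lmx1a lies below every dotted line of its own colour with its whole interval below 0, and the points of Msx1, Msx2 and Hes1 lie above the line of their colour.

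Ratios within a library are untouched when the whole library is multiplied by a factor, apart from the pseudocount, though not by quantile normalization. They were computed from the deposited FPKM after the values had been seen. Lmx1a was 20.0%, 20.4% and 29.7% of Otx2 in FPKM at E16.5, and 8.33%, 11.5% and 18.4% in adult. Every adult ratio was below every embryonic one, with a log2 difference of -0.87 between the ages (exact two-sided permutation test, p = 0.1, the smallest that 3 against 3 allows, and 0.25 adjusted over the 5 ratios). Hes1 was 6.17%, 3.20% and 1.28% of Otx2 at E16.5 and 8.02%, 18.0% and 12.5% in adult, with no overlap (log2 difference 1.97, exact p = 0.1). Of this difference, Hes1 itself contributed 0.80 and the lower adult level of Otx2 the rest, a change of -1.16. Msx1 was 63.8%, 42.4% and 46.2% of Otx2 at E16.5 and 88.5%, 105% and 51.4% in adult, which overlap (log2 difference 0.64, exact p = 0.2). Msx2 relative to Otx2 overlapped as well (exact p = 0.4). Sox2 was 7.30%, 5.93% and 7.76% of Otx2 at E16.5 and 5.20%, 5.90% and 0.0787% in adult, just apart as percentages and overlapping on the log2(FPKM + 1) scale (exact p = 0.2). Adjusted over the 5 ratios, p was 0.25 for Hes1, Msx1 and Sox2 and 0.4 for Msx2.

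**Figure D4:**
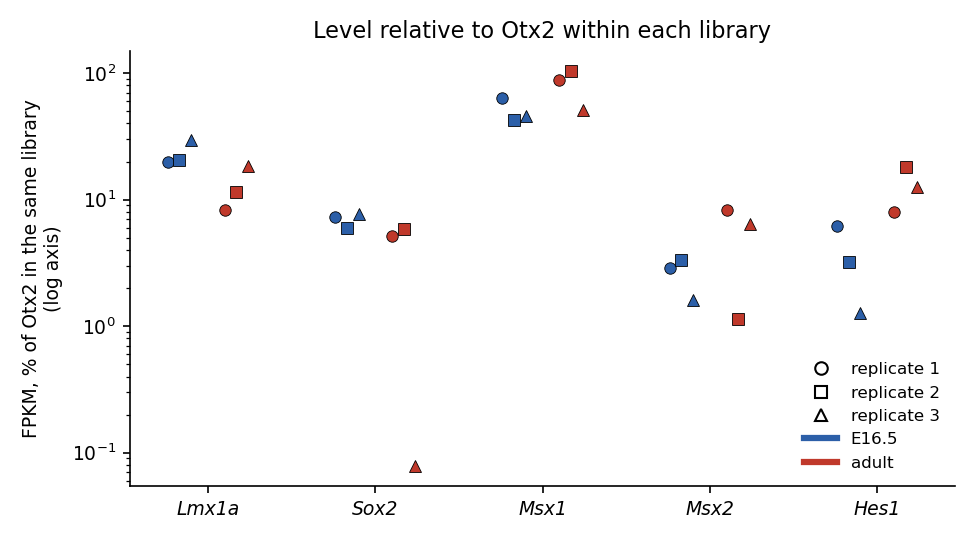
FPKM of 5 factors as a percentage of Otx2 in the same library, on a log axis, for 3 E16.5 (blue) and 3 adult libraries (red). Lmx1a lies lower and Hes1 higher relative to Otx2 in all adult libraries, and Sox2 in adult replicate 3 stands at 0.0787%.

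Lmx1a also moved within the ranking of each library, with 90.8%, 92.5% and 94.6% of the genes tested below it at E16.5 and 65.1%, 70.8% and 82.8% in adult. Hes1 ranked above 67.8%, 53.2% and 26.0% at E16.5 and above 64.2%, 80.9% and 76.1% in adult, which overlap. For Sox2 these shares were 72.6%, 70.8% and 73.6% at E16.5 and 54.2%, 52.8% and 38.9% in adult. Lmx1a and Sox2 therefore ranked lower in every adult library than in any embryonic one. Ranks of low values are not fully comparable between the ages, because fewer genes were listed above 0 in adult. Adult replicates 1, 2 and 3 had 9487, 11340 and 7599 such genes, and the E16.5 replicates 13077, 12761 and 12800. Genes at 0 lift the rank of a low value, and Sox2 at 0.145 FPKM in adult replicate 3 still ranked above 38.9%.

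Cofactors that bind homeodomain or HES proteins were counted next. Of 19 cofactors tested, limma called 3 lower in adult and 0 higher (10 and 0 at an unadjusted p under 0.05), with a median log2 change of -1.53 beside -0.86 for all genes. Of all genes tested 8.83% were called lower and 2.12% higher, 25.9% were lower and 5.34% higher at an unadjusted p under 0.05, and 72.8% had a negative change. Ldb2, an adaptor that joins LIM homeodomain proteins into complexes, had 4.67, 9.41 and 7.51 FPKM at E16.5 and 0 in all adult samples (limma adjusted p = 0.0250). Lmo4, a LIM-only protein that competes for the same adaptors, went from 28.8 ± 6.99 to 0.966 ± 1.36 FPKM (SD, n = 3 each), a log2 change of -4.11 (limma adjusted p = 0.0152). Pbx3, a partner of MEIS proteins, went from 9.52 ± 0.529 to 0.804 ± 0.990 FPKM (log2 change -2.68, limma adjusted p = 0.0449). All 3 had an adult mean under 1 FPKM and passed the filter through E16.5 alone, where a lower adult level is more easily called. All 3 calls were lost without any 1 of the E16.5 replicates. Without adult replicate 1 those of Ldb2 and Pbx3 were lost too (limma adjusted p = 0.0601 and 0.0875), as they were after quantile normalization (0.0556 and 0.171), and Pbx3 passed in 6 of 18 alternatives. The cofactors with the highest mean did not pass, namely the Groucho family members Aes (85.6 ± 23.8 FPKM at E16.5, 147 ± 47.8 FPKM in adult, limma adjusted p = 0.200) and Tle1 (65.4 ± 24.5 and 29.9 ± 11.3 FPKM, limma adjusted p = 0.131) and the LIM adaptor Ldb1 (66.5 ± 15.7 and 27.2 ± 21.5 FPKM, limma adjusted p = 0.114).

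Among 32 genes of the Notch pathway, which drives Hes1 and Hes5, 25 were tested, and limma called 1 higher and 2 lower in adult (2 and 8 at an unadjusted p under 0.05), with a median log2 change of -0.96. Over all genes tested 10.9% were called in either direction and 31.3% had an unadjusted p under 0.05, so the share called in this list is near the background. Ncstn, the nicastrin subunit of the gamma-secretase that cleaves Notch, rose from 38.9, 18.7 and 28.9 FPKM at E16.5 to 62.3, 79.7 and 101 FPKM in adult (log2 change 1.49, limma adjusted p = 0.0482). This call was lost when any single library was left out (limma adjusted p from 0.0611 to 0.142). Maml3, a coactivator of the Notch complex, fell by 2.78 on the log2 scale, from 7.98 ± 1.01 to 0.330 ± 0.314 FPKM (SD, n = 3 each, limma adjusted p = 0.0315). Lfng, a glycosyltransferase that modifies Notch, fell by 2.4, from 5.10 ± 1.62 to 0.144 ± 0.250 FPKM (limma adjusted p = 0.0437). Maml3 and Lfng passed the filter through E16.5 alone, where a lower adult level is more easily called. Both calls were lost without any 1 of the E16.5 replicates, without adult replicate 1 (limma adjusted p = 0.0650 for Maml3 and 0.101 for Lfng) and after quantile normalization (0.178 and 0.153), and that of Lfng also without adult replicate 3 (0.0633). The receptor Notch2 had 58.4, 50.3 and 84.6 FPKM at E16.5 and 55.8, 56.9 and 56.0 FPKM in adult, which overlap. Rbpj, the DNA-binding partner of cleaved Notch, had 7.50 ± 1.25 FPKM at E16.5 and 2.60 ± 1.43 FPKM in adult (limma adjusted p = 0.202).

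**Figure D5:**
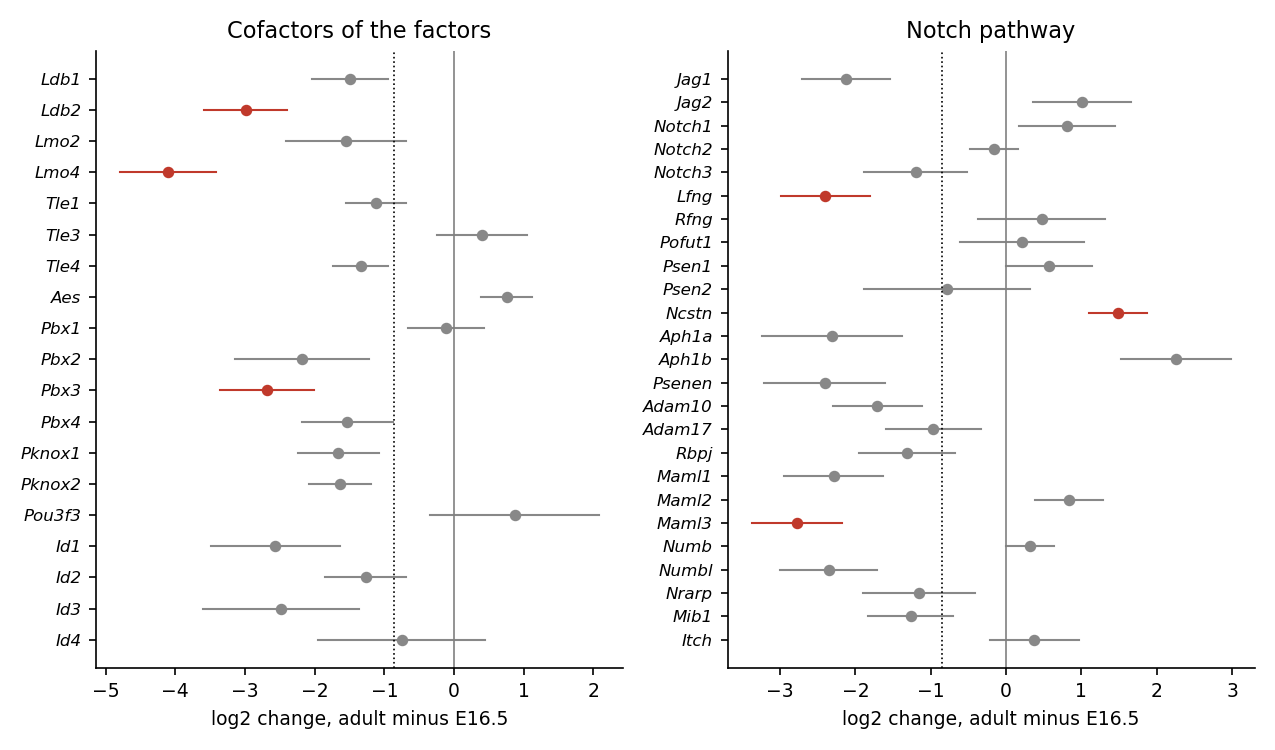
Log2 change from E16.5 to adult with its standard error (bars) for 19 cofactors (left) and 25 Notch pathway genes (right) that were tested, with calls in red, a grey line at 0 and a dotted line at the median of all genes (-0.86). Ldb2, Lmo4, Pbx3, Lfng and Maml3 are the red points below 0 and Ncstn the 1 red point above it.

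Relatives of the factors gave no calls. Of 20 relatives 7 were tested, and limma called 0 in either direction (3 lower and 0 higher at an unadjusted p under 0.05), with a median log2 change of -1.29. The most abundant were Hes6, an inhibitor of HES1, at 46.6 ± 15.7 FPKM at E16.5 and 19.9 ± 11.7 FPKM in adult, Hey2, a Notch target, at 13.9 ± 7.02 and 24.6 ± 6.0 FPKM, and Otx1, a paralog of Otx2, at 14 ± 3.81 and 22.4 ± 27.9 FPKM. The adult mean of Otx1 rests on adult replicate 3, with 54.4 FPKM beside 3.41 and 9.37 FPKM. In a list of 19 other roof plate and dorsal midline transcription factors 12 were tested and all had a negative change, as had 72.8% of all genes tested. Limma called 2 lower and 0 higher (7 and 0 at an unadjusted p under 0.05), where 8.83% of all genes were called lower and 25.9% were lower at an unadjusted p under 0.05. These were Gli3, a hedgehog effector, with 11.6 ± 1.50 FPKM at E16.5 and 0.00457 ± 0.00791 FPKM in adult (limma adjusted p = 0.0136), and Foxp2, a forkhead repressor, with 4.49 ± 0.315 and 0.117 ± 0.168 FPKM (limma adjusted p = 0.0410). Gli3 and Foxp2 also passed the filter through E16.5 alone, where a lower adult level is more easily called. Both calls were lost without any 1 of the E16.5 replicates. That of Foxp2 was also lost without adult replicate 1 or 3 (limma adjusted p = 0.0953 and 0.0615), under median-ratio scaling (0.0547) and after quantile normalization, where its log2 change went from -2.31 to -1.10 (0.353). Zic1, a dorsal midline factor, was at 74.0 ± 26.1 and 22.5 ± 13 FPKM (limma adjusted p = 0.0615).

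The genes whose log2(FPKM + 1) followed Otx2 most closely over the 6 samples were Fam84b (Pearson r = 0.996), 1700016K19Rik (r = 0.996) and Cops5 (r = 0.995), and 1067 of 11600 genes had an r above 0.9. For Lmx1a they were Pggt1b (r = 0.997), Mdp1 (r = 0.996) and Erh (r = 0.995), with 710 genes above 0.9. These correlations describe 6 samples in 2 age groups that also differ in depth, and carry no test.

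Markers of cell types moved with age beside the factors. All 20 markers of ChP epithelium were tested. Limma called 9 higher and 2 lower in adult (12 and 4 at an unadjusted p under 0.05). Their median log2 change was 0.95, beside -0.86 for all genes tested. Over all genes tested 2.12% were called higher and 8.83% lower. At an unadjusted p under 0.05 these shares were 5.34% and 25.9%. Enpp2, a secreted lysophospholipase, went from 273 ± 30.5 to 16676 ± 1937 FPKM (SD, n = 3 each), whereas the potassium channel subunit Kcne2 (1058 ± 113 and 433 ± 111 FPKM) and Calml4 (1800 ± 85.9 and 504 ± 123 FPKM) fell. Ttr, the transthyretin gene and a defining marker, is listed at 0 throughout the embryonic samples and at 20922 to 31302 FPKM in adult. An exact 0 for such a gene can be a failed estimate rather than a level, so its call, 1 of the 9, is uncertain. Other markers that rose were Prlr, Kl, F5 and Kcnj13, with log2 changes of 7.67, 6.06, 4.32 and 2.95. Of 12 ependyma and cilia markers 9 were tested, with 4 lower and 0 higher in adult by limma (7 and 0 at an unadjusted p under 0.05), and their summed FPKM was 2217 to 2965 at E16.5 and 333 to 449 in adult. Cfap126, Mia and Cd24a fell by 3.73, 6.88 and 4.35 on the log2 scale. The largest E16.5 means in the sum were those of Cfap126, Dynlrb2 and Rsph1 (1123, 516 and 467 FPKM). S100b had a positive log2 change (0.85, limma adjusted p = 0.554), and Tmem212, Ccdc153 and Aqp4 were too low to be tested. Foxj1 itself, whose promoter drives the Cre, fell from 208, 198 and 154 FPKM to 37.9, 45.8 and 62.4 FPKM (log2 change -1.93, limma adjusted p = 0.0127, and 0.0554 to 0.0692 without an E16.5 replicate). The part of cell makeup, and of the driver, in the falls of Otx2 and Lmx1a was not tested.

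Other marker lists had few calls, all lower in adult, where 8.83% of all genes tested were called lower and 2.12% higher. Neural progenitor markers had 0 calls among 3 tested by limma (1 higher at an unadjusted p under 0.05) and summed to 123 to 145 FPKM at E16.5 and 138 to 212 FPKM in adult. Neuron markers had 1 among 7, Map2. Cell cycle markers had 1 among 7, Top2a, a topoisomerase of dividing cells, and summed to 57.3 to 105 and 23.5 to 49.8 FPKM. Mesenchyme and fibroblast markers had 1 among 7, Pdgfra, and summed to 63.7 to 73.1 and 13.3 to 22.2 FPKM. Red blood cell markers had 2 among 4, the globins Hba-a2 and Hbb-bs, with sums of 54.1 to 324 FPKM at E16.5 and 0 to 6.49 FPKM in adult. Top2a, Hba-a2 and Hbb-bs were at 0 in every adult sample and passed the filter through E16.5 alone. Endothelium (2 tested), macrophage (3), neural crest and cranial mesenchyme (1) and astrocyte and oligodendrocyte markers (5) had 0 limma calls, with 1, 0, 0 and 1 lower and none higher at an unadjusted p under 0.05. Their sums at E16.5 were 12.7 to 44.6, 0.584 to 8.48, 0.531 to 7.76 and 17.3 to 28.5 FPKM, and in adult 0.489 to 17.7, 0.0695 to 6.82, 0 to 3.37 and 11.2 to 103 FPKM. Markers at 0 in all 6 samples included Eomes, Ccnb1, Esam, Olig1, Foxd3, Prrx2 and the macrophage genes Aif1, Cd68, C1qc and Tyrobp.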

How the data were processed

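TRAP libraries of ChP from 3 adult and 3 E16.5 samples were analysed from 1 table of FPKM per gene. Per the paper's methods and the labels, the authors made libraries from ribosome-bound RNA with a ribodepletion kit, aligned reads with STAR (2.4.0 in the submitters' processing notes) to mm10, and deposited FPKM that Cufflinks computed; the release of the mm10 annotation behind the FPKM is not given in the sources used here. Read counts were not used here. FPKM are normalized for transcript length and library size, so a few abundant RNAs shift all other values. Groups came from sample titles. Values were tested as log2(FPKM + 1) with limma 3.58.1 (R 4.3.3, intensity trend, two-sided), on the 11601 genes with a mean above 1 FPKM over the 6 samples, at a Benjamini-Hochberg adjusted p of 0.05 over these genes. Fold changes on this scale understate changes of low genes. Read steps were taken from 2523 genes with a single transcript of at least 1000 bases, of which 35 to 63 low values per library were used, and 65.1% to 82.1% of these lay within 0.1 of a whole read, so depth is approximate. The fitting was tested on simulated data. Alternatives changed the pseudocount, filter, scaling, trend, sample weights, replicate block, threshold and samples. The members and lists were chosen with earlier results of these data known. Named genes were the 10 factors, the genes called in each list (at most 6 per direction), the 3 most abundant relatives and cofactors, overlapping genes, defining markers at 0 and the 3 genes most like Otx2 and Lmx1a. Notch2, Rbpj, Zic1, Lhx9, Meis2 and Tubb3 were named after their values were seen.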

Additional observations from a re-analysis of the deposited data

How the results depend on the processing

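Calls depended on the processing. As reported, 1270 genes, 2 factors and 6 genes among relatives, cofactors and the Notch pathway were called. With no filter on low values these counts were 305, 0 and 0, at an adjusted p of 0.01 they were 188, 0 and 0, and with libraries scaled to the same sum of FPKM they were 3319, 4 and 20. With FPKM above 0 in every sample 620 genes and 1 list gene were called, and with a mean above 5 FPKM 3 list genes. Median-ratio scaling called 1 factor, quantile normalization 1 factor and 3 list genes, and a fit with no intensity trend 0 factors. Leaving out 1 library at a time gave 43 to 1923 genes, 0 to 3 factors and 0 to 10 list genes. Without E16.5 replicate 1, 2 or 3 there were 57, 43 and 112 genes called, and without adult replicate 1, 2 or 3 there were 687, 1923 and 1721. The loss of a call without an E16.5 replicate was therefore shared by most genes called. Of all genes called 19.4% were higher in adult, against 34.7% under median-ratio scaling, 50.5% after quantile normalization, 3.59% with the same sum, 33.4% with no filter, 39.8% with FPKM above 0 in every sample and 29.8% at an adjusted p of 0.01. Over 19 alternatives Otx2 passed in 10, Lmx1a in 12, Sox2 in 2, Msx1 in 1 and Hes1 and Msx2 in 0, and Pax6 passed in 0 of the 16 that could be run. Msx2 (-0.39 as reported) reversed to 0.30 after quantile normalization and to 0.34 without adult replicate 2, and ranged from -0.77 to 0.34 with 1 library left out. Fitted with a replicate block, 564 genes, 1 factor (Lmx1a) and 1 list gene were called. The labels do not say whether same-numbered samples share more than a number. Their deviations from the mean of their age correlated at 0.000895, 0.0439 and 0.0150, which cannot decide whether they shared a preparation. The cause of these shifts was not tested. Low adult depth, where 1 read in a kilobase is worth up to 0.324 FPKM, limits what can be said of low levels of Pax6, Meis1, Hes5 and Lmx1b in adult. On the longest coding transcript, 1 adult read came to 0.027 to 0.077 FPKM for Pax6 and 0.015 to 0.044 FPKM for Meis1. For Hes5 it came to 0.106 to 0.302 FPKM and for Lmx1b to 0.025 to 0.071 FPKM. Meis1 was at 0 in E16.5 replicate 3 as well, and Lmx1b in every E16.5 library. Whether an exact 0 was a failed estimate was not tested.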
